A study of Mus musculus with 4 samples.

Results

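Immunoglobulin heavy and light chain transcripts were examined in lymph node B cells of mice that over-express the microRNA miR-146a. All probe sets whose annotated symbol starts with Igh, Igk or Igl were taken, other than the DNA-binding protein gene Ighmbp2, which gave 25 of the 45037 probe sets tested. Of these, 2 stood for heavy chain constant genes, 2 for heavy chain variable genes, 19 for the kappa light chain and 2 for the lambda light chain, and they carried 16 symbols. TG mice were miR-146a transgenic and WT mice were wild type. Each group held 2 male Balb/C mice of 6 to 8 weeks with 1 array per mouse. B cells had been enriched by magnetic removal of other cells, and the labels do not state which promoter drives the transgene. The transgene raises a microRNA whose mature mouse form is shown because it defines the comparison, with capitals for the seed (bases 2 to 8), from RefSeq on GRCm38.p6.
miR-146a-5p: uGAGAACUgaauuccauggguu

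An antibody is built from paired heavy and light chains, and each B cell joins V, D and J segments of the heavy chain locus, and V and J segments of a kappa or a lambda locus, to make its own pair. The heavy chain constant gene sets the class, with Ighm for IgM and Igha for IgA, and most mouse B cells use a kappa light chain. Naive B cells carry the product in the membrane as the B cell receptor, while plasma cells secrete it in bulk. RefSeq places the Igh genes of the set on chromosome 12, the Igk genes on chromosome 6 and Iglv1 on chromosome 16, and 22 of the 25 probe sets were matched to it. Igk-V21, an older locus symbol with 3 probe sets, was not matched.

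The values are log2 signals as deposited, and a difference of -1 means a signal halved in TG. Across probe sets the TG arrays correlated with r = 0.989 and the WT arrays with r = 0.998 (Pearson). The signal of TG mouse 1 was lower as a whole, with a median of 4.48, against 4.61 in TG mouse 2 and 4.59 to 4.60 in the WT mice. Xist, the RNA of the inactive X chromosome in female cells, read 9.13 and 9.56 on the TG arrays, against 5.96 and 6.19 on the WT arrays (1436936_PM_s_at), although all 4 mice are labelled male. The Y-linked gene Eif2s3y read 7.80 and 8.00 in TG and 8.29 and 8.34 in WT (1417210_PM_at). The part of this in the results was not tested.

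Immunoglobulin signals were mostly lower on the TG arrays, but no single probe set passed the test. Of the 25 probe sets, 20 were lower in both TG mice than in either WT mouse, none was higher in both, and 5 overlapped between the groups. Over all probe sets 31.4% were lower and 17.7% higher without overlap. The median difference was -0.80 over the 25 probe sets, a 1.74-fold lower signal, and -0.04 over all probe sets tested. Of the 25, 20 had a mean signal above the 40th percentile of all probe sets, with a median difference of -0.92. Of these 20, 19 were lower and 0 higher without overlap. All 27022 probe sets above that percentile had a median of -0.12, with 10748 lower and 3974 higher without overlap. With limma and Benjamini-Hochberg adjustment over all probe sets, none of the 25 passed an adjusted p of 0.05, a threshold that 0.0466% of all probe sets passed, and the smallest limma adjusted p was 0.113. At an unadjusted p under 0.05 limma gave 18 of the 25 as lower and 0 as higher, where 10.5% of all probe sets were lower and 3.21% higher.

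These calls depended on scaling and on single arrays. After quantile normalization 8 of the 25 were lower past an adjusted p of 0.05 by limma, as were 1.04% of all probe sets. Median centring gave 10, which included those 8, and 0.944% of all probe sets. Without TG mouse 1 limma called 15 lower and 5.16% of all probe sets. Without TG mouse 2 it called 19, which included those 15, and 32.9% of all probe sets. Without WT mouse 1 the median difference was -0.82 over the 25 and -0.045 over all probe sets. Without WT mouse 2 these medians were -0.77 and -0.050.

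**Figure D1:**
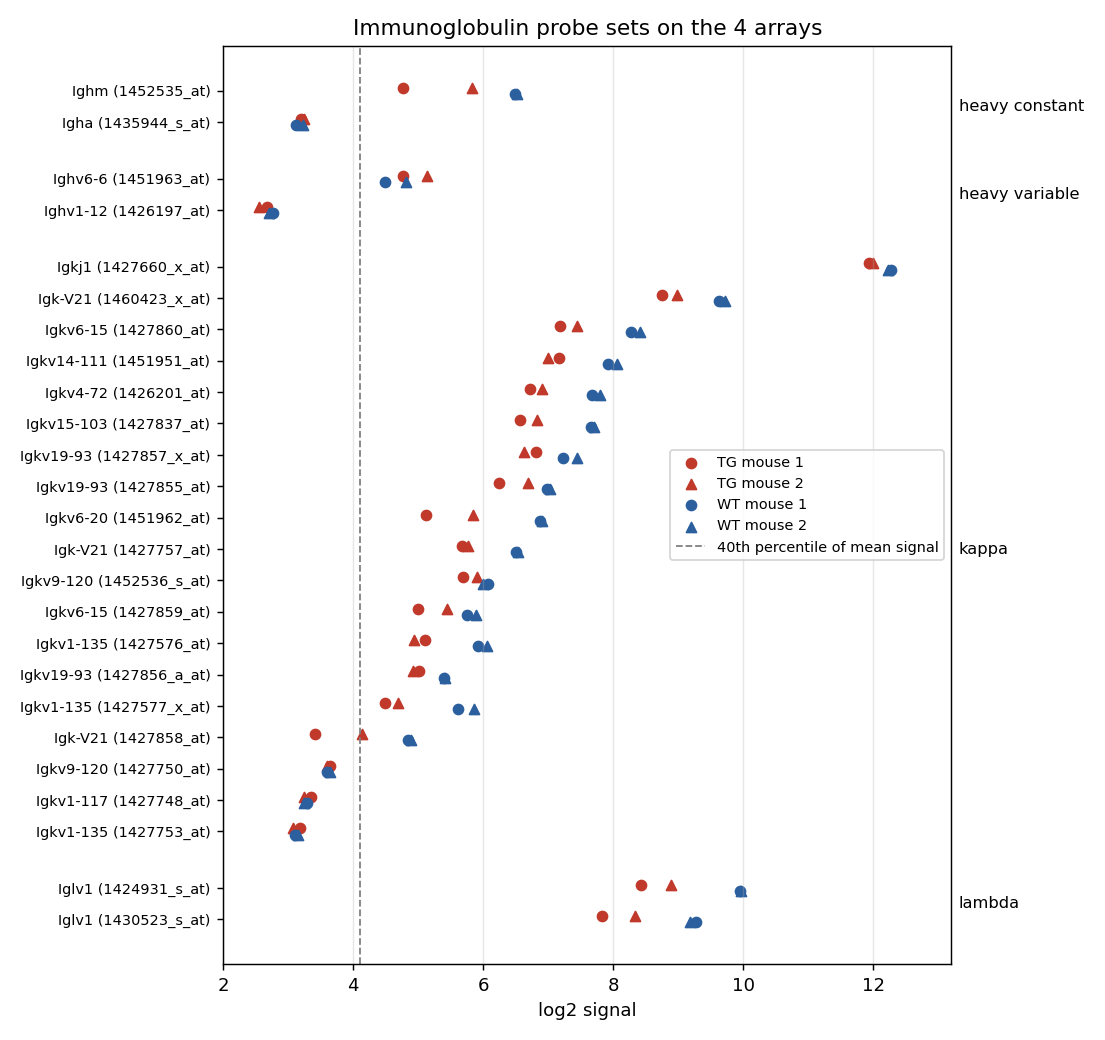
The log2 signal of each immunoglobulin probe set (horizontal axis) on the arrays of TG mice 1 and 2 (red) and WT mice 1 and 2 (blue), grouped by class and ordered by mean signal. The kappa and lambda probe sets whose mean exceeds the dashed line (4.10, the 40th percentile of mean signal over all probe sets) have both TG values left of both WT values.

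B cells of TG and WT mice were next set against each other class by class, which addresses whether the differences were shared by heavy and light chains. The heavy chain was thinly covered. Ighm, the constant region of IgM (1452535_PM_at), read 4.76 and 5.83 in the TG mice, against 6.48 and 6.52 in the WT mice. Both TG values lay below both WT values, but the TG mice differed from each other by far more than the WT mice did, with 5.30 ± 0.75 in TG and 6.50 ± 0.03 in WT (SD, n = 2 each). The difference was -1.20 (SE 0.36, a 2.30-fold lower signal, limma adjusted p = 0.291), and it was -0.67 without TG mouse 1 and -1.73 without TG mouse 2. The sequence record behind this probe set belongs to the same accession run as those of 4 kappa variable probe sets. Whether it reads the constant region or a rearranged variable region was not tested.

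Igha, the constant region of IgA (1435944_PM_s_at), read 3.20 and 3.24 in TG and 3.12 and 3.24 in WT. These values overlapped and lay within the range of the non-specific control probe sets, which averaged 2.83 to 2.95 per array and reached 3.49 to 3.57, so a difference in IgA transcript was not detectable here. No probe set of the set carried a symbol for IgD, IgG or IgE heavy chains or for the kappa or lambda constant genes. Probe sets with no gene name were not analysed here.

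Of the 2 heavy chain variable probe sets, only Ighv6-6 read above the range of the non-specific controls. Ighv6-6 (1451963_PM_at) read 4.77 and 5.13 in the TG mice, against 4.49 and 4.82 in the WT mice. The groups overlapped, and the difference of 0.30 (SE 0.19, limma adjusted p = 0.535) was the highest of the 25. Ighv1-12 (1426197_PM_at) read 2.68 and 2.55 in TG and 2.76 and 2.71 in WT, at the level of the non-specific controls in all 4 mice, and it was lower without overlap by a difference of -0.12.

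Kappa probe sets made up most of the set. Of 19, 16 were lower without overlap, none was higher without overlap and 3 overlapped. The shares over all probe sets were 31.4% lower and 17.7% higher without overlap. The kappa median difference was -0.80, with a range of -1.40 to 0.04. Igkj1, a kappa joining segment (1427660_PM_x_at), was the brightest at 11.93 and 12.00 in TG, against 12.26 and 12.22 in WT. The groups did not overlap, but the difference was small at -0.28 (SE 0.10, a 1.21-fold lower signal, limma adjusted p = 0.345). The highest signal on any array was 13.03, so this probe set lay near the top of the measured range.

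The 5 brightest kappa V probe sets had differences of -0.81 to -1.02, all without overlap, beside 31.4% of all probe sets lower without overlap. Igk-V21 (1460423_PM_x_at) read 8.74 and 8.98 in TG, against 9.62 and 9.72 in WT, a difference of -0.81 (SE 0.13, limma adjusted p = 0.144). Igkv6-15 (1427860_PM_at) read 7.18 and 7.44 in TG, against 8.27 and 8.41 in WT, a difference of -1.02 (SE 0.14, limma adjusted p = 0.125). In both, the TG mice lay closer to each other than to either WT mouse. Igkv14-111 (1451951_PM_at) read 7.16 and 6.99 in TG and 7.92 and 8.06 in WT, with TG mouse 2 the lowest. Igkv4-72 (1426201_PM_at) read 6.72 and 6.90 in TG and 7.67 and 7.79 in WT, with TG mouse 1 the lowest. Igkv15-103 (1427837_PM_at) read 6.56 and 6.83 in TG and 7.66 and 7.70 in WT. These last 3 V segments differed by -0.91, -0.92 and -0.98 (SE 0.12 to 0.13), with limma adjusted p between 0.119 and 0.126.

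Among dimmer kappa V segments, Igkv6-20 (1451962_PM_at) had the largest difference of the set. It read 5.13 and 5.84 in TG, against 6.87 and 6.90 in WT, a difference of -1.40 (SE 0.25, a 2.64-fold lower signal, limma adjusted p = 0.169). The TG mice stood apart here too, and without TG mouse 1 the difference was -1.05, against -1.76 without TG mouse 2. Igkv1-135 read 5.10 and 4.94 in TG and 5.92 and 6.06 in WT on 1427576_PM_at (difference -0.97, SE 0.12, limma adjusted p = 0.113, the smallest of the set). On 1427577_PM_x_at it read 4.50 and 4.69 in TG and 5.61 and 5.86 in WT (difference -1.14, SE 0.14). A second Igk-V21 probe set (1427757_PM_at) read 5.67 and 5.76 in TG and 6.50 and 6.53 in WT, and its difference of -0.80 (SE 0.10, limma adjusted p = 0.114) was close to that of the brighter one. The other 9 kappa probe sets had differences of -1.09 to 0.04. Of these, 6 did not overlap, all lower in TG, beside 31.4% of all probe sets lower without overlap.

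**Figure D2:**
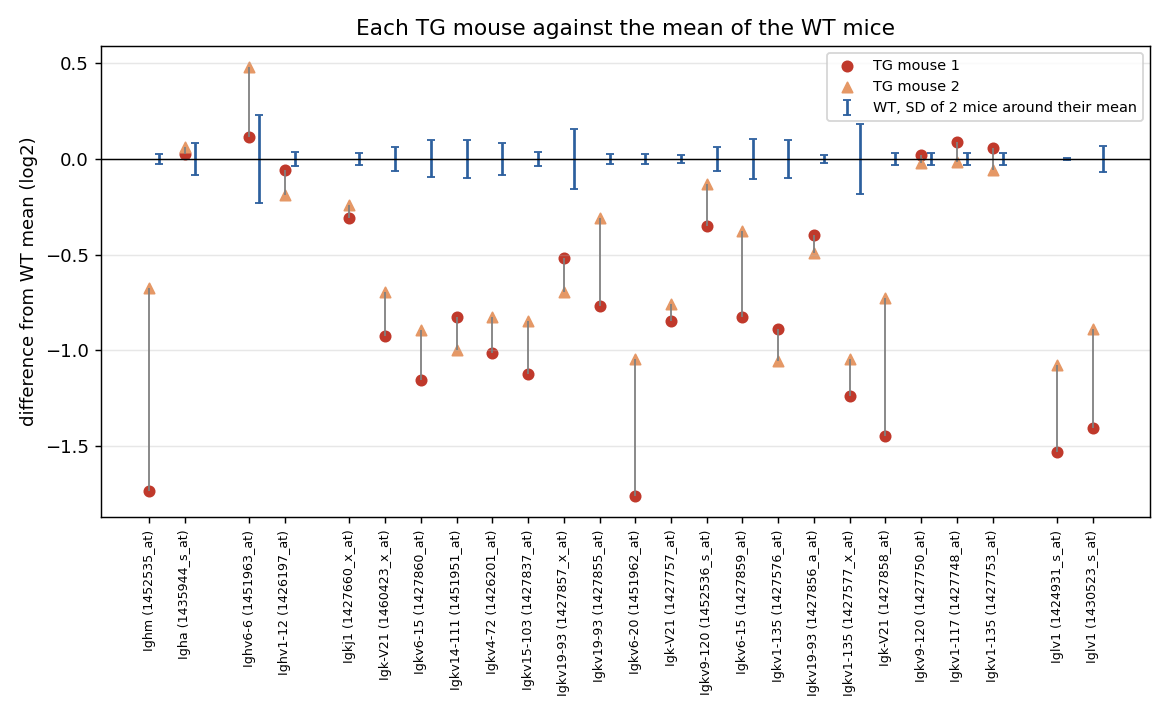
The difference of TG mouse 1 (circles) and TG mouse 2 (triangles) from the mean of the 2 WT mice on the log2 scale (vertical axis) for each of the 25 probe sets, with blue bars for the SD of the WT mice around 0. Ighm, Igkv6-20 and a dim Igk-V21 probe set show the widest gaps between the TG mice. Of the 25 values, 17 are lower in TG mouse 1 than in TG mouse 2, as are 31679 of all 45037 probe sets.

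Probe sets of the same kappa gene did not always give the same value. Igkv19-93 differed by -0.61, -0.54 and -0.44 on its 3 probe sets, and Igkv6-15 by -1.02 and -0.60. Another Igkv1-135 probe set (1427753_PM_at) lay at 3.13 in both groups and differed by 0.0005. Igkv9-120 differed by -0.24 on a probe set with a mean of 5.92 and by -6e-05 on one with a mean of 3.62. The single Igkv1-117 probe set, with a mean of 3.28, differed by 0.04. The 3 kappa probe sets whose groups overlapped were thus the 3 dimmest, near the non-specific controls. Affymetrix names ending in _s_at or _x_at mark probes that can bind several transcripts, and V segments of a family are alike, so a probe set may read more than the segment it is named for. By name ending, the 16 probe sets ending in plain _at had a median difference of -0.86. The 4 ending in _x_at had -0.71 and the 4 ending in _s_at -0.69, and the 1 ending in _a_at differed by -0.44. These medians include dim probe sets. With a mean signal above 4.10, the medians were -0.95 for 12 ending in _at, -0.71 for 4 in _x_at and -1.15 for 3 in _s_at.

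The differences did not run in one direction along the kappa locus. RefSeq orders the 9 matched V segments from the end far from the J segments as Igkv1-135, Igkv9-120, Igkv1-117, Igkv14-111, Igkv15-103, Igkv19-93, Igkv4-72, Igkv6-20 and Igkv6-15. Taking the brightest probe set of each, the differences along that order were -0.97, -0.24, 0.04, -0.91, -0.98, -0.61, -0.92, -1.40 and -1.02. The Igkv1-117 probe set lay within the range of the non-specific controls.

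Lambda light chain signal was lower on both probe sets of Iglv1, a lambda V segment. On 1424931_PM_s_at it read 8.43 and 8.88 in the TG mice, against 9.95 and 9.96 in the WT mice. The WT values nearly coincided and both TG values lay more than 1 log2 unit below them, with a difference of -1.30 (SE 0.18, a 2.47-fold lower signal, limma adjusted p = 0.127). On 1430523_PM_s_at it read 7.82 and 8.33 in TG, against 9.27 and 9.18 in WT, a difference of -1.15 (SE 0.20, a 2.21-fold lower signal, limma adjusted p = 0.16). Both probe sets were lower past an adjusted p of 0.05 by limma after quantile normalization (-1.15 and -0.99) and after median centring (-1.25 and -1.09).

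**Figure D3:**
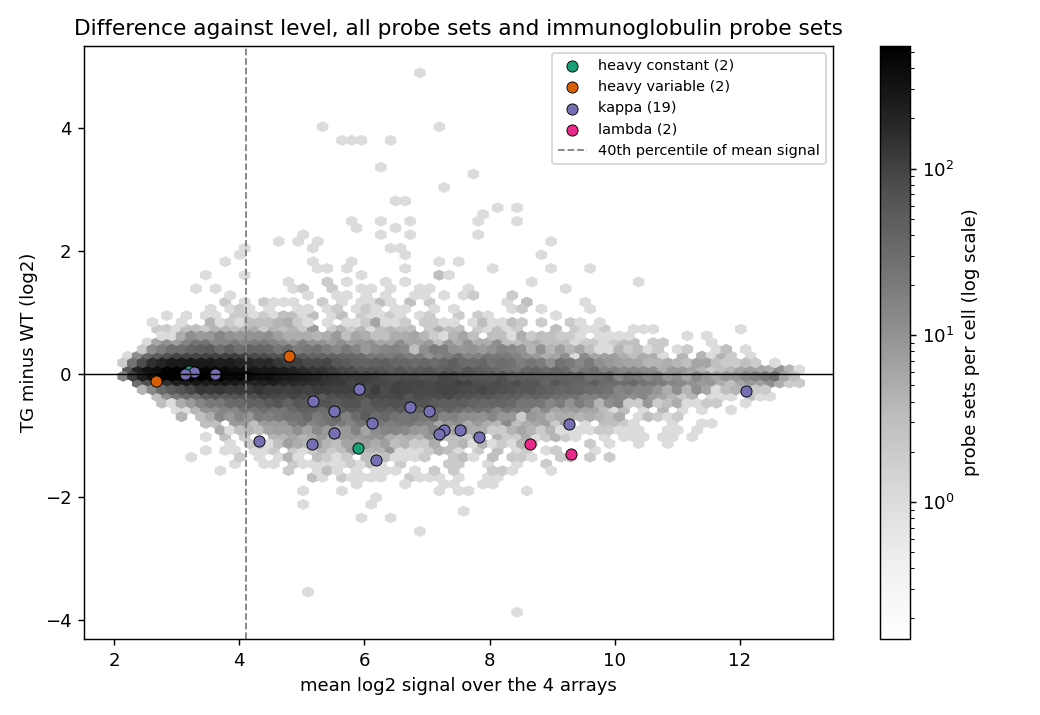
The difference TG minus WT (vertical axis, log2) against the mean log2 signal over the 4 arrays (horizontal axis) for all 45037 probe sets (grey cells, darker for more probe sets) and the 25 immunoglobulin probe sets (coloured by class). The 5 immunoglobulin probe sets left of the dashed line (4.10) lie between -0.12 and 0.04, and Igkj1 is the brightest of the 25.

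Other B cell transcripts were lower on the same arrays. The 5 measured B cell markers of 6 listed were all lower without overlap, beside 31.4% of all probe sets, with a median difference of -1.01. Cd79a, a signalling chain of the B cell receptor, differed by -1.41 (SE 0.26), its partner Cd79b by -1.01 (SE 0.19), and Ms4a1, the surface protein CD20, by -0.36 (SE 0.10), with limma adjusted p of 0.176, 0.183 and 0.278. The summed signal of the 5 markers was 12.39 and 12.42 in TG, against 13.23 and 13.30 in WT, on the log2 scale. The cells labelled B cells also carried T cell transcripts, with Cd3d at 11.65 and 11.75 in TG and 11.42 and 11.39 in WT. T cell markers were higher in 6 of 7 without overlap (median 0.22), where 17.7% of all probe sets were higher without overlap. Cd8a differed by 1.14 and Cd8b1 by 0.74, while Cd4 differed by -0.79. The summed signal of the T cell markers was 13.33 and 13.47 in TG, against 13.03 and 13.04 in WT. All 9 measured neutrophil markers were higher without overlap (median 2.19; Ngp and Chil3 rose, limma adjusted p = 0.0219 for both), with a summed signal of 10.65 and 11.13 in TG, against 8.48 and 8.47 in WT. For 6 monocyte and macrophage markers, 4 of them higher without overlap, the median was 0.38 and the summed signal 10.70 and 10.96 in TG, against 10.30 and 10.28 in WT. Among the T cell, neutrophil and monocyte markers the lowest was Mpo, at 3.60 and 3.70 in TG and 3.57 and 3.51 in WT, near the non-specific controls. The part of these cell types in the immunoglobulin differences was not tested. In bulk RNA, fewer B cells and less immunoglobulin RNA per B cell cannot be told apart.

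Set against Cd79a, Cd79b and Ms4a1, whose mean difference was -0.93, the immunoglobulin probe sets had differences on both sides of that value. After the mean of these 3 markers was subtracted on each array, 4 of the 25 were lower and 12 higher without overlap, and 9 overlapped. Of the 20 with a mean signal above 4.10, 4 were lower and 7 higher without overlap, and 9 overlapped. Their median relative difference was 0.009. The 5 dimmer probe sets were all higher, with a median relative difference of 0.93, although they differed by only -0.12 to 0.04 before the subtraction. The same subtraction left 0.36% of all probe sets lower and 93.6% higher without overlap, with a median difference of 0.88, since it adds about the marker difference to every probe set. Igkv4-72 differed by 0.0056 and Igkv14-111 by 0.01, and both overlapped between the groups. Iglv1 (1424931_PM_s_at) was lower without overlap, with a difference of -0.38, at -1.73 and -1.18 in TG, against -1.03 and -1.14 in WT. Igkv6-20 differed by -0.48, at -5.04 and -4.22 in TG, against -4.11 and -4.20 in WT. In both, TG mouse 2 lay only just below the nearer WT mouse. Ighm overlapped between the groups, with a difference of -0.28. The markers spanned -1.41 to -0.36 among themselves, so these relative values move with the marker chosen.

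Genes that serve immunoglobulin expression were compared from a list of 36, of which 31 were measured. None passed the threshold over all probe sets by limma. At an unadjusted limma p under 0.05, 13 were lower and 1 higher, beside 10.5% and 3.21% of all probe sets. Without overlap, 17 were lower and 3 higher, beside 31.4% and 17.7% of all probe sets. The median difference of the 31 genes was -0.34. Transcription factors that act on immunoglobulin genes in B cells had the lowest median of the 5 gene groups of the list, -1.10, with all 7 lower without overlap. Pou2af1, the co-activator of the octamer-binding factors, read 9.71 and 9.89 in TG and 10.87 and 10.92 in WT (difference -1.10, SE 0.11, limma adjusted p = 0.0935). Pou2f2, the octamer factor Oct-2, differed by -1.44 (SE 0.25), Spib, an Ets factor, by -1.40 (SE 0.25), and Ebf1, an early B cell factor, by -1.28 (SE 0.18). Irf4, which also acts in plasma cells, differed by -0.35 (SE 0.12).

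Genes of antibody assembly and secretion had a median of -0.18 over 11 measured members, with 4 lower and 2 higher without overlap, beside 31.4% and 17.7% of all probe sets. Jchain, which links IgM and IgA chains, read 9.56 and 9.71 in TG, against 10.31 and 10.26 in WT (difference -0.65, SE 0.11, limma adjusted p = 0.155). Xbp1, a regulator of the secretory apparatus, read 10.08 and 10.12 in TG and 10.08 and 10.06 in WT, and these values overlapped. Prdm1, which encodes the plasma cell regulator Blimp-1, read 5.21 and 5.46 in TG and 5.05 and 4.76 in WT (difference 0.43, SE 0.16, limma adjusted p = 0.356). Hspa5, the chaperone BiP that binds heavy chains, differed by -0.23 and overlapped. Of 6 measured plasma cell markers, 3 were lower and 1 was higher without overlap, and their summed signal was 11.25 and 11.37 in TG and 11.62 and 11.60 in WT.

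The remaining pathway genes were mixed. The surrogate light chain genes of B cell precursors, Vpreb1 and Vpreb2, overlapped. Vpreb3, a related gene listed with them, differed by -0.50 (SE 0.17). Genes of class switching and V(D)J joining were low or overlapped in all 4 that were measured: Rag1 and Rag2, the recombinase genes, lay at 2.54 to 3.06 on every array, and Ung differed by -0.22. Among antibody receptors, Fcgr2b, the inhibitory IgG receptor of B cells, read 8.27 and 8.82 in TG, against 9.52 and 9.59 in WT (difference -1.01, SE 0.20, limma adjusted p = 0.193). Fcgrt, the neonatal Fc receptor, was the receptor gene higher without overlap, by 0.23 (SE 0.10). Pigr, which carries polymeric antibodies across epithelia, differed by -0.50 (SE 0.10).

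**Figure D4:**
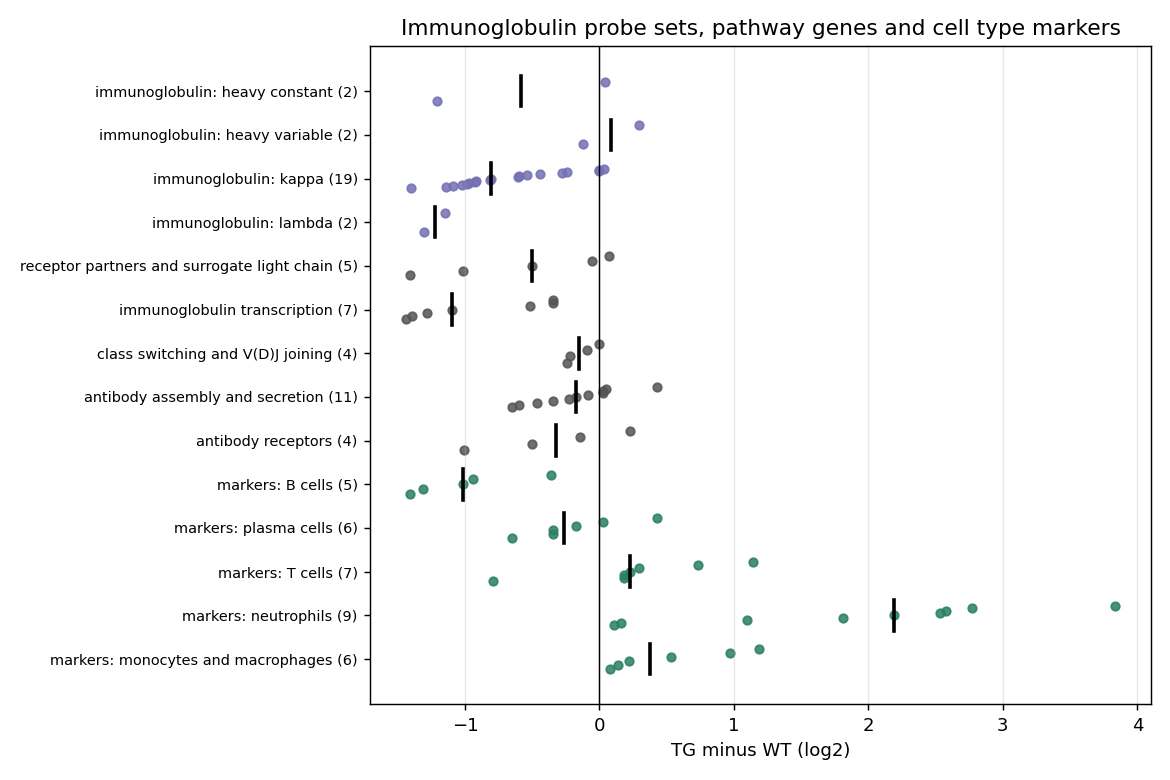
The difference TG minus WT (horizontal axis, log2) of each immunoglobulin probe set (purple), each measured pathway gene (grey) and each measured cell type marker (green), with a black bar at the median of each row and the number of members in brackets. The kappa, lambda, immunoglobulin transcription and B cell marker rows have medians between -1.23 and -0.80, and the neutrophil row has a median of 2.19.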

How the data were processed

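Total RNA was labelled with biotin with a 3' IVT kit and measured on 4 arrays, per the labels' protocols. The authors deposited log2 signals, 1 per probe set and array. Their background correction, normalization and summary are not given in the sources used here, and the log base was inferred from the range of the values. Groups came from the titles. Symbols came from the platform annotation, in which none of the 25 probe sets carried several genes.

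The comparison of TG with WT used limma 3.58.1 under R 4.3.3 (two-sided, Benjamini-Hochberg over 45037 probe sets, 104 controls left out, 2 residual and 2.69 prior degrees of freedom). Of 50 simulated decreases of 1 log2 unit this fit recovered 6%, and of 50 decreases of 2 units 82%. The simulation gave TG and WT the same spread and no array-wide shift. In the data the median SD over all probe sets was 0.154 in TG and 0.049 in WT, so the recovery may differ there. Each array is a separate mouse per the titles, so the p-values reflect variation between mice. Full values were given, per class, for the 6 brightest probe sets and the 4 with the smallest p among the rest. The members, lists and tests were chosen with earlier results of these data known. Pathway genes used their brightest probe set. The mean of 3 B cell genes gave the relative values, and some listed genes are not reported here. Immunoglobulin promoter sequences were not used here. Figures used matplotlib 3.10.9.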

Additional observations from a re-analysis of the deposited data

How the results depend on the processing

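The number of arrays limits precision. The count of 21 probe sets called over the whole table (17 higher and 4 lower) became 870 after quantile normalization (402 higher and 468 lower), 614 after median centring (189 higher and 425 lower) and 51 with a filter on dim probe sets. Leaving out 1 array gave 0 to 19110 over the whole table and 0 to 19 of the 25 immunoglobulin probe sets. Quantile normalization gave 8 of the 25 and median centring 10. The replicate block, a trended and robust eBayes, and an adjusted p of 0.1 each gave 0 of 25. The dim filter kept 20 of the 25 and gave 0 of 20. With 1 TG mouse left out, the lone TG mouse is assumed to vary like the WT mice. The kappa median of -0.80 became -0.58 after quantile normalization, and it ranged from -0.70 (without TG mouse 1) to -0.83 (without TG mouse 2) among the fits without 1 TG mouse. Each heavy chain median rests on 2 probe sets, and with the dim filter it rests on 1 (-1.20 for constant, 0.30 for variable). The near-zero Igha difference ran from -0.017 to 0.10 as 1 array was left out, turning below 0 without WT mouse 1. The median over all probe sets (-0.04) turned to 0.0066 after quantile normalization, 0.0094 after median centring, and ran from -0.11 to 0.0038 as 1 array was left out, above 0 without TG mouse 1. Of the 20 immunoglobulin probe sets above the 40th percentile, 19 were lower under each of the 9 refits, which reuse the same arrays. In the fit to all arrays, 18445 of all 27022 probe sets above that percentile were lower. How many of those stayed lower under every refit was not computed. The labels do not tie a TG mouse to the WT mouse of the same number. The difference between the TG mice and that between the WT mice had a correlation of 0.01 over all probe sets. With 2 mice per group this value cannot show whether the numbers pair them. With the replicate block 15 probe sets were called over the whole table.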
